A study of Homo sapiens with 12 samples.

Results

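The long noncoding RNAs described here are 537 of 27064 measured gene symbols. They were chosen by name and by mean raw level over both treatments: symbols beginning LINC or SNHG and a number, symbols ending in -AS1, and GAS5, MALAT1 and NEAT1, kept where the mean over the 6 libraries of at least 1 cell line reached 1 CPM (the raw count relative to the library total). Of 1861 symbols with such a name, 537 passed: 392 named as antisense to another gene, 124 LINC RNAs (intergenic by name), 19 named as hosts of small nucleolar RNAs (18 SNHG RNAs and GAS5) and the nuclear RNAs MALAT1 and NEAT1. UCA1, also named by the rule, was not among them, with 1 read in 1 of 12 libraries. The RNAs were thus selected on their level, so levels are given as a description and only the response to the drug was tested. That mean pools both treatments, so a scarce RNA could pass through the treated or the control group alone. The change of such an RNA is not independent of its selection. Just inside the minimum were SCOC-AS1 (1.002 CPM in H226) and LINC01504 (1.01 CPM in ACHN), and just outside it PRKAR2A-AS1 (0.967 CPM in H226) and LINC00887 (0.991 CPM in H226).

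Long noncoding RNAs are transcribed and spliced much like messenger RNAs but are not known to be translated into a conserved protein, and many act where they are made. Antisense RNAs are read from the opposite strand of another gene, often from a shared promoter. Hosts of small nucleolar RNAs (snoRNAs) carry these guides of ribosomal RNA modification in their introns, and the spliced remainder is often destroyed by nonsense-mediated decay. Box C/D snoRNAs guide methylation and box H/ACA snoRNAs guide pseudouridylation. TEAD proteins are the DNA-binding partners of the coactivators YAP and TAZ, which the Hippo pathway restrains.

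The libraries are of poly(A) RNA from 2 cancer cell lines, NCI-H226 from mesothelioma (H226) and ACHN from kidney carcinoma, both described by the submitters as deficient in NF2, an upstream Hippo component. Each line received 100 nM SWTX-143, an inhibitor of TEAD, or its solvent DMSO overnight, with 3 libraries in each of the 4 groups. Whether the 3 libraries come from separate cultures is not stated, so p-values here reflect the spread among libraries alone, and that spread may be technical. Each line is a single established line and came as its own count table, so line and handling cannot be told apart where levels of the 2 lines are set side by side. Library totals ran from 9690980 to 11262663 counts, and the 537 RNAs held 0.712% to 0.840% of them in H226 and 0.663% to 0.717% in ACHN. Mesothelial markers were high in H226 and the kidney markers PAX8, PAX2 and CDH16 were detected in ACHN, where EMX2 of the same list had no count, although 1 mesothelial marker, LRRN4, also had a mean of 187 CPM in the ACHN controls. The 4 YAP/TEAD readouts CTGF, CYR61, ANKRD1 and AMOTL2 fell in both lines.

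The strand setting of the counting is not known. Reads from an antisense RNA and from the gene it overlaps therefore cannot be told apart, and the same holds for the 354 of 537 RNAs whose exons overlap those of another measured gene in GENCODE 29. In the current RefSeq list 14 of the 537 symbols belong to protein-coding genes. LINC01279 is part of CCDC80, which encodes a secreted matrix protein, and LINC00998, LINC00493, LINC01420 and LINC00116 now stand for the small proteins SMIM30, SMIM26, NBDY and MTLN.

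In the levels, 384 RNAs passed 1 CPM in both lines, 67 in H226 only and 86 in ACHN only. Most were scarce: 166 reached 10 CPM and 12 reached 100 CPM in at least 1 line. Per kilobase of the longest transcript, the leaders in H226 were EZR-AS1 (214 CPM per kb), LRRC75A-AS1 (210), VIM-AS1 (204) and MIF-AS1 (138), and these 4 were among the 5 highest in ACHN too, with VIM-AS1 first at 435 CPM per kb. Vimentin (VIM), the intermediate filament gene of mesenchymal cells that VIM-AS1 overlaps, was at 1030 CPM in H226 and 2100 CPM in ACHN. LRRC75A-AS1 is now called SNHG29, since 3 box C/D snoRNAs lie in it. Some RNAs belonged almost to 1 line, of which the following other than LINC00958 were chosen after their values were seen. CADM3-AS1 had no count in ACHN and a mean of 172 CPM in H226, where it rose from 137, 145 and 155 CPM to 194, 207 and 194 CPM (0.45, SE 0.05, adjusted p = 8.1e-12 in edgeR). LINC00842 had 56.9 against 0.393 CPM. In the other direction, IGFBP7-AS1 stood at 80.1 CPM in ACHN against 0.166 CPM in H226, LINC00958 at 44.0 against 0.0149 CPM, and LINC01116 at 33.9 against 0.207 CPM.

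Under SWTX-143 the share of these RNAs called was below that of all genes in both lines. In H226, 457 of the 537 had enough counts for the test, and 65 rose and 47 fell, 24.5% of those tested. Over all 13484 genes tested in H226, 40.7% were called, 2567 genes higher and 2919 lower. In ACHN 15 rose and 19 fell of 474 tested, or 7.17%, against 17.8% of 13483 genes (8.43% higher and 9.37% lower). A call is an adjusted p under 0.05 in edgeR's quasi-likelihood test with Benjamini-Hochberg adjustment over all genes tested in that line. Under the 2 other scalings the ACHN split turned, to 21 higher and 16 lower with upper-quartile factors and to 24 and 15 with library size alone.

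**Figure D1:**
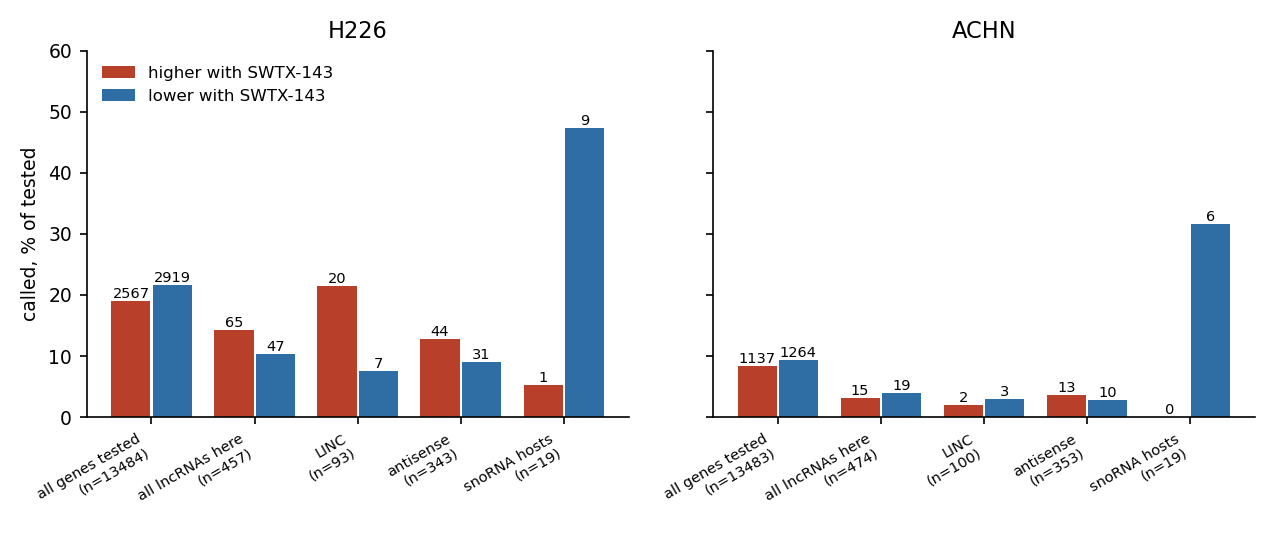
Share of tested genes called higher (red) or lower (blue) with SWTX-143 in H226 (left) and ACHN (right), in percent from 0, with the number of genes above each bar. The snoRNA hosts have 9 falls among 19 in H226 and 6 among 19 in ACHN, while LINC RNAs have 20 rises and 7 falls in H226.

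The share called was also below that of all genes within each band of level. Among RNAs under 10 CPM in H226, 19.6% were called against 25.9% of all genes in that band, and from 10 CPM up 36.6% against 46.9%. In ACHN the shares were 3.22% against 7.60% under 10 CPM and 17.4% against 21.5% from 10 CPM up. In H226 the median log2 fold change under 10 CPM was 0.11 for these RNAs and 0.12 for all genes. LINC RNAs had 20 rises and 7 falls of 93 tested in H226 (median 0.19) and 2 rises and 3 falls of 100 in ACHN (median −0.01, and 0.02 under both other scalings). The H226 shares were 21.5% higher and 7.53% lower. Rises also outnumbered falls among all genes under 10 CPM in H226, with 17.5% higher and 8.43% lower. Antisense RNAs had 44 rises and 31 falls of 343 in H226 (median 0.06) and 13 rises and 10 falls of 353 in ACHN (median 0.01), where upper-quartile scaling gave 19 and 7 and library size alone 22 and 6. The median over all genes tested was 0.00 in each line.

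The snoRNA hosts leaned the other way. In H226, 9 of 19 fell and 1 rose, with a median log2 fold change of −0.21. In ACHN 6 of 19 fell and none rose, with a median of −0.26. The estimate was below 0 for all 19, but the highest was −0.01. The other scalings shifted the median over all genes by more than that (0.023 with upper-quartile factors and 0.029 with library size alone). The falls were 47.4% of hosts in H226 and 31.6% in ACHN, against 21.6% and 9.37% of all genes tested. Of all genes from 10 CPM up, 27.2% were lower in H226 and 11.8% in ACHN. In DESeq2 the falls numbered 6 in H226, with 19 hosts given an adjusted p, and 2 in ACHN, with 15 given one. In edgeR, H226 had 7 falls and 2 rises with upper-quartile scaling, and 8 and 2 with library size alone. ACHN kept 6 falls and no rise under both. SNHG15, SNHG17, SNHG1, SNHG16 and GAS5 were called lower in both lines.

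SNHG15, which hosts the box H/ACA snoRNA SNORA9, had the largest fall among the hosts in H226, while in ACHN SNHG17 did. The SNHG15 level in H226 was 26.1, 22.4 and 22.4 CPM under DMSO and 10.9, 11.3 and 13.6 CPM under SWTX-143 (CPM from here on uses TMM-scaled library sizes). Every treated library lay far below every control, a 1.98-fold fall (log2 fold change −0.99, SE 0.10, adjusted p = 3.02e-12, n = 3 per group). In ACHN it went from 16.1, 19.2 and 15.9 CPM to 11.1, 13.5 and 13.4 CPM (−0.43, SE 0.11, adjusted p = 0.00204), again without overlap. The fall was larger in H226 by 0.56 on the log2 scale (SE 0.15, adjusted p = 0.00368 for the difference).

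SNHG1 carries 8 box C/D snoRNAs in its introns. In H226 it stood at 87.3, 75.3 and 73.1 CPM in the controls and at 47.9, 48.7 and 52.4 CPM in the treated libraries (−0.66, SE 0.06, adjusted p = 2.44e-12). In ACHN the values were 50.1, 50.6 and 43.4 CPM against 37.8, 34.9 and 38.8 CPM (−0.37, SE 0.07, adjusted p = 4.4e-05). The groups did not overlap in either line. The difference between lines, −0.30 (SE 0.09, adjusted p = 0.016), was not called in DESeq2 (adjusted p = 0.099), with upper-quartile scaling, or without any 1 of 5 libraries: H226 DMSO replicate 1, H226 SWTX-143 replicates 1 and 2, and replicate 3 of either ACHN group, where the adjusted p rose to 0.214 at most.

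SNHG17 hosts 4 box H/ACA snoRNAs of the SNORA71 family. It fell from 6.82, 9.60 and 8.92 CPM to 4.85, 5.78 and 4.73 CPM in H226 (−0.72, SE 0.15, adjusted p = 0.000109). In ACHN it fell from 9.70, 9.36 and 10.1 CPM to 7.87, 7.65 and 5.71 CPM (−0.46, SE 0.14, adjusted p = 0.0122). Both lines separated treated from control libraries. In ACHN the call was lost without DMSO replicate 3 or SWTX-143 replicate 3 (adjusted p up to 0.126) and in DESeq2 (0.0932).

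SNHG16 and GAS5 fell by small amounts. SNHG16, with 3 box C/D snoRNAs of the SNORD1 family, went from 129, 137 and 133 CPM to 117, 116 and 114 CPM in H226 (−0.20, SE 0.05, adjusted p = 0.000365) and from a mean of 99.0 to 87.4 CPM in ACHN (−0.18, SE 0.05, adjusted p = 0.014). GAS5 hosts 10 box C/D snoRNAs and 1 box H/ACA snoRNA, and is known for accumulating when growth stops and translation slows. It went from 70.3, 62.2 and 60.7 CPM to 54.97, 57.97 and 57.59 CPM in H226 (−0.18, SE 0.06, adjusted p = 0.0107). In ACHN it went from 50.8, 58.4 and 53.9 CPM to 48.0, 45.1 and 47.7 CPM (−0.21, SE 0.06, adjusted p = 0.011). The groups did not overlap, but GAS5 lost its call in H226 without replicate 1 of either group (adjusted p up to 0.199), with both other scalings and in DESeq2 (0.0838), and in ACHN without replicate 2 of either group (0.144) and in DESeq2 (0.0653). SNHG16 lost its ACHN call without DMSO replicate 1 or SWTX-143 replicate 3 (adjusted p up to 0.247) and in DESeq2 (0.0716).

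**Figure D2:**
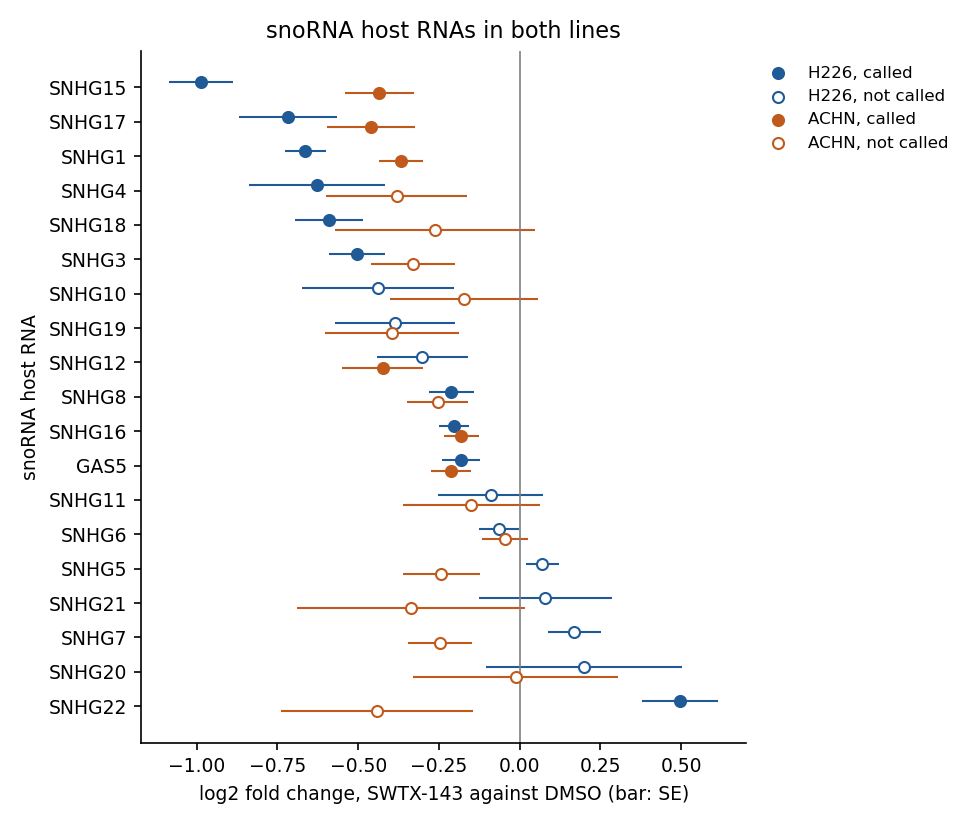
Log2 fold change of the 19 snoRNA hosts with SWTX-143 in H226 (blue) and ACHN (orange), with SE bars and filled points for calls. SNHG15 lies lowest in H226 at −0.99, and SNHG22, at 0.50, is the 1 host called higher.

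A further 4 hosts fell in H226 without a call in ACHN. SNHG3, which hosts the abundant SNORA73 (U17) RNAs needed to cleave ribosomal RNA precursors, fell from 38.1, 32.5 and 33.2 CPM to 21.2, 24.0 and 28.1 CPM (−0.50, SE 0.09, adjusted p = 1.07e-05), with ACHN at −0.33 (adjusted p = 0.0729). Its exons overlap those of RCC1 on the same strand, and RCC1 fell too (−0.31, adjusted p = 2.11e-06), so reads of the pair cannot be told apart. SNHG18, host of SNORD123, fell from 17.1, 18.2 and 20.6 CPM to 11.1, 11.7 and 14.1 CPM (−0.59, SE 0.11, adjusted p = 5.73e-06). SNHG4, host of the SNORA74 (U19) RNAs, was called at −0.63 (adjusted p = 0.0136) and SNHG8, host of SNORA24, at −0.21 (adjusted p = 0.012). SNHG4 lost its call without replicate 1 of either group (adjusted p up to 0.107), SNHG8 without DMSO replicate 1 (0.0956) and with upper-quartile scaling, and both in DESeq2 (0.102 and 0.0954). For none of these 4 was the difference between lines called.

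SNHG12 was called in ACHN, from 12.02, 16.16 and 12.77 CPM to 11.9, 8.24 and 10.1 CPM (−0.42, SE 0.13, adjusted p = 0.0115), and had −0.30 in H226 (adjusted p = 0.0971). Its ACHN call was lost without replicate 2 of either group (adjusted p up to 0.171) and in DESeq2 (0.0792). SNHG22 stood apart as the host called higher: it rose from 9.06, 9.69 and 10.8 CPM to 13.8, 11.8 and 15.96 CPM in H226 (0.50, SE 0.12, adjusted p = 0.000527). RefSeq places no snoRNA in SNHG22, and its exons overlap the motor protein gene MYO5B on the opposite strand, which also rose (0.30, adjusted p = 9.14e-07). SNHG22 had −0.44 in ACHN, and its difference between lines (0.93, SE 0.32, adjusted p = 0.0317) was not called without 1 of 4 libraries (ACHN DMSO replicate 1 or 3, ACHN SWTX-143 replicate 1, H226 SWTX-143 replicate 3) or in DESeq2 (0.0506). SNHG7 was called in neither line (0.17 and −0.25), though the difference was called (0.41, SE 0.13, adjusted p = 0.0186) except without ACHN DMSO replicate 3, ACHN SWTX-143 replicate 3 or H226 SWTX-143 replicate 2 (up to 0.0899).

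The hosts without a call in either line were SNHG5, SNHG6, SNHG7, SNHG10, SNHG11, SNHG19, SNHG20 and SNHG21. SNHG5, host of the SNORD50 pair, had 112, 114 and 99.7 CPM under DMSO and 114, 117 and 111 CPM under SWTX-143 in H226, where the groups overlapped (0.07, adjusted p = 0.279). It was scarcer in ACHN, at a mean of 10.7 CPM against 111 CPM. SNHG6, host of SNORD87, stood at means of 51.4 and 49.2 CPM in H226 and 32.4 and 31.4 CPM in ACHN, with log2 fold changes of −0.06 and −0.05. Outside the SNHG names, 5 LINC and antisense RNAs hold a snoRNA gene. LRRC75A-AS1 (SNHG29) rose in ACHN from 251, 278 and 278 CPM to 299, 304 and 298 CPM (0.16, SE 0.04, adjusted p = 0.00185) and was flat in H226 (0.01, adjusted p = 0.855). THAP9-AS1, which holds SNORD143 and SNORD144, fell in H226 from 35.1, 32.3 and 28.7 CPM to 25.0, 27.1 and 26.4 CPM (−0.30, SE 0.08, adjusted p = 0.00146), with −0.06 in ACHN (adjusted p = 0.631), and was chosen after its values were seen. The others, EPB41L4A-AS1, STARD7-AS1 and LINC00888, were called in neither line, LINC00888 being too scarce in H226 for the test.

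A start-site feature that the name rule did not use was present at some of the hosts. RNAs of ribosomal proteins and of several snoRNA hosts are known to begin with a C followed by a run of pyrimidines, the 5′ terminal oligopyrimidine tract that ties translation to mTOR. A first base C followed by at least 4 pyrimidines was present at 5 of 17 hosts with a RefSeq start (29.4%), against 4.04% of 27305 RefSeq starts and 3.45% of 406 among these RNAs. This search was added after the values were seen. The windows below run from 20 bases before the annotated start to 30 bases from it on (GRCh38.p14), are shown for 4 hosts with the tract and the 2 most changed hosts with a RefSeq start in the table, and carry the tract in capitals.
SNHG12 (chr1:28581844-28581893, minus strand): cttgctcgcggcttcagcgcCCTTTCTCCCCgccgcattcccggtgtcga
SNHG4 (chr5:139274081-139274130, plus strand): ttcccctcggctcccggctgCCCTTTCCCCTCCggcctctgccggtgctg
SNHG18 (chr5:9546180-9546229, plus strand): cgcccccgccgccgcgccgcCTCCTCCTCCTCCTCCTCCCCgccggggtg
SNHG5 (chr6:85678704-85678753, minus strand): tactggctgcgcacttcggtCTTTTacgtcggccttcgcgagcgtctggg
SNHG1 (chr11:62855856-62855905, minus strand): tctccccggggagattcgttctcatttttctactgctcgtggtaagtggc
SNHG17 (chr20:38435299-38435348, minus strand): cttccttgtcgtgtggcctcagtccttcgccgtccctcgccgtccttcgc
Hosts with the tract and hosts without it were found among both the called and the uncalled, and its relation to the response was not tested. SNHG4 and SNHG18, with it, fell in H226, and SNHG12, also with it, was called lower in ACHN. SNHG5, with it too, was flat in H226, and SNHG1 and SNHG17 fell in both lines without it at the annotated base. The fifth host with the tract, SNHG19, was called in neither line (−0.39 and −0.40). An annotated start may differ by a few bases from the start used in these cells, which was not tested.

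Genes of the proteins that package snoRNAs also fell in H226. Of 13 measured snoRNP proteins, 11 fell and none rose in H226 (median −0.36), and 3 fell in ACHN (median −0.07), where 21.6% of all genes tested in H226 and 9.37% of those in ACHN were lower. All 13 had means above 10 CPM, and from 10 CPM up the shares lower were 27.2% in H226 and 11.8% in ACHN. NOLC1, the nucleolar chaperone of snoRNPs, fell from 256 ± 7.79 to 151 CPM (−0.76, SE 0.04, adjusted p = 2.05e-21), and dyskerin (DKC1), the pseudouridine synthase, fell by a similar amount (−0.78, SE 0.05). NOP56 (−0.63) and NOP58 (−0.44), scaffold proteins of box C/D particles, fell as well. In ACHN the 3 calls were NOP56 (−0.25), NOLC1 (−0.23) and DKC1 (−0.14). Among 14 nonsense-mediated decay factors, also all above 10 CPM, 5 fell in H226, furthest MAGOH (−0.31), and 1 in ACHN (SMG1, −0.27). Beside them stand the same 21.6% and 9.37% of all genes, and 27.2% and 11.8% of those from 10 CPM up. The ACHN count is near the background.

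MALAT1 and NEAT1 held more reads in H226 than any other of these RNAs, and neither was called in either line. MALAT1 accumulates at nuclear speckles and ends in a triple helix instead of a poly(A) tail, and NEAT1 is the scaffold of paraspeckles. In H226 MALAT1 had 962, 670 and 975 CPM under DMSO and 885, 956 and 1227 CPM under SWTX-143 (0.24, SE 0.22, adjusted p = 0.469), and the groups overlapped. In ACHN it had 316, 379 and 317 CPM against 292, 224 and 425 CPM (−0.10, SE 0.27, adjusted p = 0.865).

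NEAT1 had 449, 350 and 415 CPM in the H226 controls and 511, 539 and 712 CPM in the treated libraries. All 3 treated values were above all 3 controls, but the test did not call it (0.54, SE 0.18, adjusted p = 0.085), whereas DESeq2 did (adjusted p = 0.0127). In ACHN its values were 398, 508 and 429 CPM against 374, 271 and 536 CPM (−0.18, SE 0.29, adjusted p = 0.767). The libraries of a group spread in a similar way for both RNAs: the lowest library was the same for MALAT1 and NEAT1 in 4 of 4 groups and the highest in 3 of 4. SWTX-143 replicate 3 was highest for both in each line. The libraries were poly(A)-selected, and the part that selection plays in this spread was not tested.

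**Figure D3:**
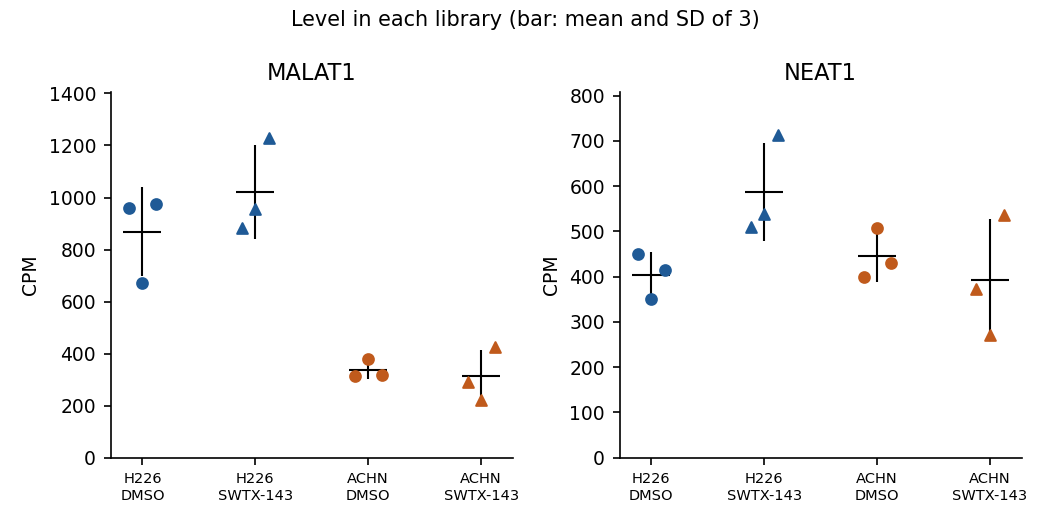
CPM of MALAT1 (left) and NEAT1 (right) in each library, with the mean and SD of 3 libraries, for H226 (blue) and ACHN (orange) under DMSO (circles) and SWTX-143 (triangles). The treated ACHN libraries spread from 224 to 425 CPM for MALAT1 and from 271 to 536 CPM for NEAT1, across the controls of both.

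The proteins of these nuclear bodies were among the genes that fell in H226. Of 12 paraspeckle and speckle proteins, 7 fell and none rose there (median −0.22), where 21.6% of all genes were lower. All 12 had means above 10 CPM, and 27.2% of genes from 10 CPM up were lower. Among the 7 were the splicing factors SRSF2 (−0.43, SE 0.04) and SRSF1 (−0.32, SE 0.04). In ACHN 2 of 12 fell, SON (−0.18) and SMARCA4 (−0.14), against 9.37% of all genes and 11.8% of those from 10 CPM up.

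Among LINC RNAs the clearest fall was LINC01279, the symbol now joined to CCDC80. It went from 297, 272 and 279 CPM to 159, 160 and 184 CPM in H226 (−0.75, SE 0.05, adjusted p = 2.51e-15). In ACHN it went from 19.8, 18.6 and 17.7 CPM to 8.75, 9.13 and 7.73 CPM (−1.13, SE 0.11, adjusted p = 5.29e-12). Treated and control libraries were far apart in both lines. CCDC80 itself fell beside it, from a mean of 3012 to 2022 CPM in H226 (−0.57, SE 0.04) and from 398 to 215 CPM in ACHN (−0.89, SE 0.04), and since LINC01279 belongs to that gene in RefSeq the pair is not independent. The fall was larger in ACHN by 0.37 (SE 0.12, adjusted p = 0.0154 for the difference), a call lost without ACHN DMSO replicate 1 or ACHN SWTX-143 replicate 3 (adjusted p up to 0.0979).

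LINC01111 was mostly an ACHN RNA, and fell in both lines. In H226 it went from 9.60, 7.88 and 7.87 CPM to 4.29, 4.03 and 4.46 CPM (−0.99, SE 0.15, adjusted p = 3.15e-07). In ACHN it went from 95.6, 98.2 and 85.2 CPM to 82.1, 83.2 and 80.6 CPM (−0.18, SE 0.05, adjusted p = 0.0096). No treated library reached a control in either line, but the ACHN call was lost without DMSO replicate 2 (adjusted p = 0.119). The H226 fall was larger by 0.82 (SE 0.16, adjusted p = 3.96e-05 for the difference).

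Other LINC falls were called in H226 alone. LINC00839 fell from 38.1, 38.5 and 39.5 CPM to 26.6, 25.1 and 26.7 CPM (−0.57, SE 0.07, adjusted p = 2.18e-09). It had −0.06 in ACHN, and the difference of −0.51 (SE 0.13) was called (adjusted p = 0.00267). LINC00968 fell 3.51-fold, from 2.24, 3.89 and 2.41 CPM to 0.839, 0.788 and 0.802 CPM (−1.81, SE 0.30, adjusted p = 1.96e-06), and had no count in any ACHN library. In turn, LINC00968 passed the 1 CPM minimum through its H226 controls alone. LINC00452 fell from a mean of 7.22 to 4.66 CPM (−0.62, SE 0.16, adjusted p = 0.00127). LINC01347 was called at −0.79 (adjusted p = 0.042), but not with either other scaling, without the low-count filter, without DMSO replicate 1 or 3 or SWTX-143 replicate 2 or 3 (up to 0.181), nor in DESeq2 (0.19). In ACHN the third LINC fall was LINC00265 (−0.38, SE 0.12, adjusted p = 0.021), whose groups overlapped. It was not called without DMSO replicate 2 or 3 or SWTX-143 replicate 1 or 2 (up to 0.194), nor in DESeq2 (0.124).

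**Figure D4:**
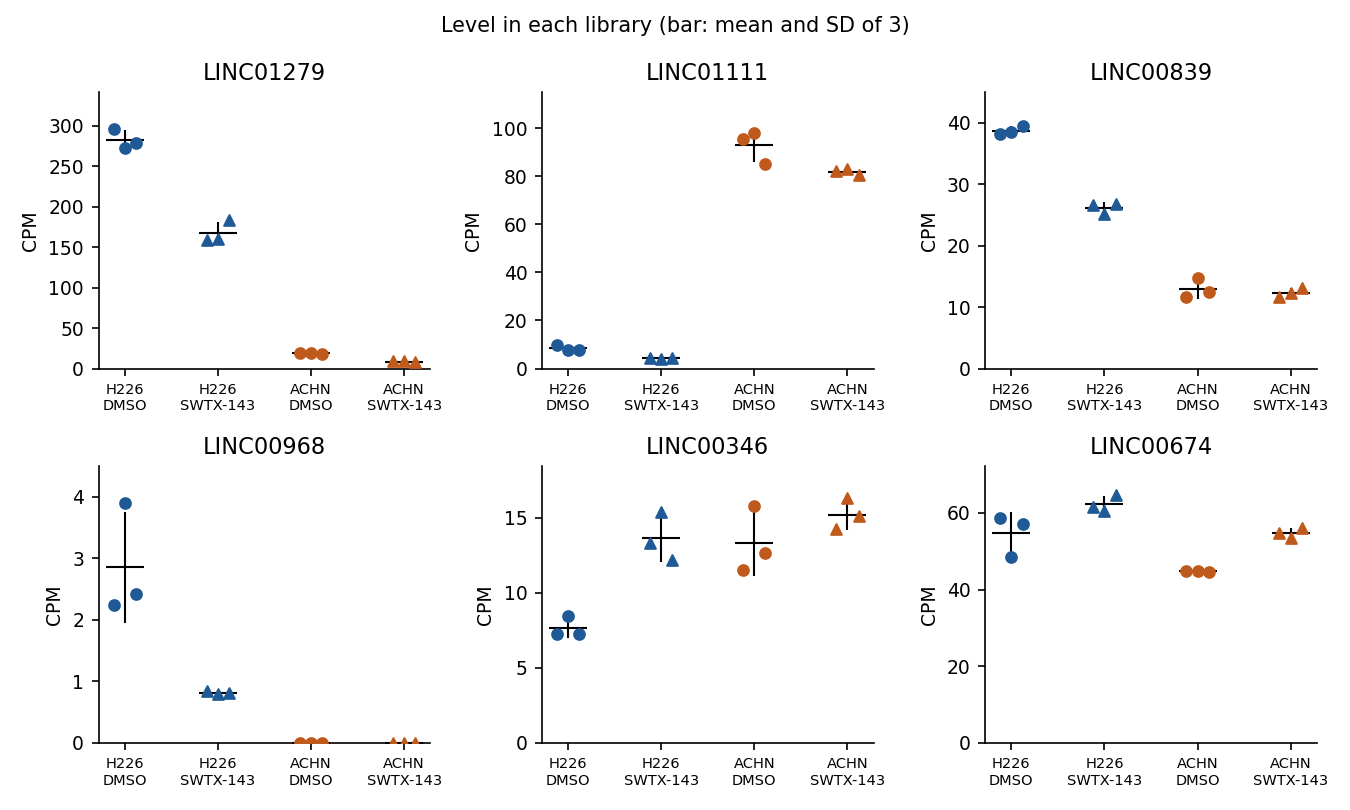
CPM of 6 LINC RNAs in each library, with the mean and SD of 3 libraries, for H226 (blue) and ACHN (orange) under DMSO (circles) and SWTX-143 (triangles). LINC01279 and LINC01111 fall in both lines, LINC00839 and LINC00968 in H226, LINC00346 rises in H226 and LINC00674 in both.

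Several LINC RNAs rose in H226. LINC00346 rose from 7.27, 8.42 and 7.24 CPM to 13.3, 15.4 and 12.2 CPM (0.83, SE 0.12, adjusted p = 1.19e-07). ACHN already had 11.5 to 15.8 CPM under DMSO and did not differ by the test (0.19, adjusted p = 0.253), and the difference of 0.64 (SE 0.17) was called (adjusted p = 0.00341). LINC00473, known as an RNA induced by cyclic AMP and CREB, rose from 0.628, 0.453 and 0.420 CPM to 1.58, 1.84 and 1.16 CPM (1.58, SE 0.39, adjusted p = 0.000755), and only 1 ACHN library, a treated one, had a count. LINC00473 passed the 1 CPM minimum through the treated H226 libraries alone, so its rise is not independent of its selection.

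LINC00173 rose 5.60-fold in H226, from 0.179, 0.181 and 0.315 CPM to 1.40, 1.49 and 0.981 CPM (2.49, SE 0.49, adjusted p = 3.43e-05). ACHN had about 2 CPM in both groups (0.06), and the difference of 2.42 (SE 0.56) was called (adjusted p = 0.000868). The treated H226 libraries thus stayed below every ACHN library. LINC00504 (0.83, adjusted p = 0.000289) had no count in ACHN, and LINC01094 (0.78, adjusted p = 0.00263) was not called there (−0.14). LINC00174 (0.92, adjusted p = 0.0101) was not called without DMSO replicate 2 or SWTX-143 replicate 3 (up to 0.158) or in DESeq2 (0.0633). LINC00324 (0.89, adjusted p = 0.039) was not called without the low-count filter, without any 1 library other than SWTX-143 replicate 2 (up to 0.12) or in DESeq2 (0.176). Like LINC00473, LINC00324 passed the 1 CPM minimum through the treated H226 libraries alone, so its rise is not independent of its selection.

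LINC00674 rose in both lines. It went from 58.8, 48.5 and 57.0 CPM to 61.6, 60.4 and 64.6 CPM in H226 (0.19, SE 0.06, adjusted p = 0.0129) and from 44.9, 44.8 and 44.5 CPM to 54.8, 53.4 and 56.1 CPM in ACHN (0.29, SE 0.06, adjusted p = 0.000218). The groups did not overlap in either line. The H226 call was lost without DMSO replicate 2 (adjusted p = 0.239) and in DESeq2 (0.0605). LINC01139 rose in ACHN (0.44, SE 0.14, adjusted p = 0.0249), but not without DMSO replicate 2 or 3 or SWTX-143 replicate 3 (up to 0.203), nor in DESeq2 (0.154). Of the 14 symbols that now name protein-coding genes, 2 rose and 1 fell in H226. Together these calls were 21.4% of the 14, against 40.7% of all genes tested in H226, so the share called was below the background. The rises were LINC00094 (BRD3OS), from a mean of 44.3 to 56.0 CPM (0.34, SE 0.06, adjusted p = 1.25e-05), beside its opposite-strand neighbour BRD3 (0.34), and TNRC6C-AS1 (0.89, adjusted p = 0.0403). TNRC6C-AS1 was not called without replicate 1 of either group or SWTX-143 replicate 3 (up to 0.297), or in DESeq2 (0.182). The small-protein genes LINC00998, LINC00493, LINC01420 and LINC00116 were called in neither line.

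Where an antisense RNA and the gene it is named after were both called, they mostly moved the same way. In H226, 325 antisense RNAs and their namesakes were both tested, and 72 of the antisense RNAs were called. The namesake was called too in 51 of these, 70.8%, against 46.2% of all 325 namesakes, and 47 of the 51 moved the same way. In ACHN 22 of 324 were called and the namesake in 15 of them, 68.2% against 23.5%, all 15 the same way. Across pairs, log2 fold changes of antisense RNA and namesake had a Pearson correlation of 0.59 in H226 (325 pairs) and 0.44 in ACHN (324 pairs). Pairs come from the same libraries and can share reads, so this is a description. Among the 296 exon-overlapping pairs in H226, 64 were called and 46 had the other gene called (71.9% against 45.9% of all 296), 41 of them the same way. In ACHN 23 of 305 such pairs were called and 14 had the other gene called (60.9% against 23.0%), all 14 the same way.

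**Figure D5:**
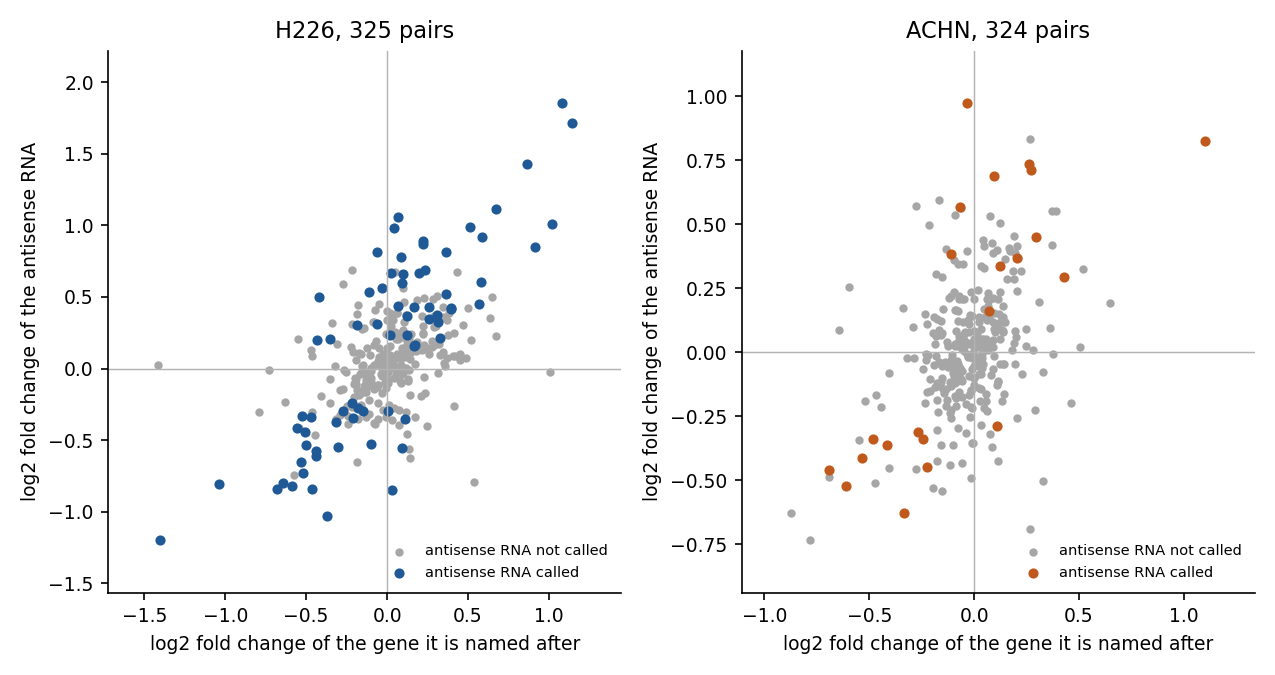
Log2 fold change with SWTX-143 of antisense RNAs (vertical) against the gene each is named after (horizontal), in H226 (left, 325 pairs) and ACHN (right, 324 pairs), with called antisense RNAs coloured. Coloured points lie mainly at the lower left and upper right, with the same direction in 47 of 51 pairs with both genes called in H226 and 15 of 15 in ACHN.

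Among antisense falls in H226, FAM212B-AS1 was largest. It went from 2.87, 2.72 and 2.94 CPM to 0.745, 1.05 and 1.87 CPM (−1.20, SE 0.28, adjusted p = 0.000344), and FAM212B, which encodes an inhibitor of the kinase PAK4, fell as well (−1.41). DIAPH3-AS1 fell from 10.95, 10.96 and 12.28 CPM to 7.45, 6.31 and 5.53 CPM (−0.82, SE 0.13, adjusted p = 8.06e-07), beside the formin DIAPH3 (−0.59, adjusted p = 2.14e-16). In each the highest treated library was below the lowest control.

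The cell-cycle neighbours TMPO-AS1 and PCNA-AS1 fell in H226 and were not called in ACHN. TMPO-AS1 had 31.2, 36.1 and 35.2 CPM under DMSO and 21.9, 24.1 and 22.7 CPM under SWTX-143 in H226 (−0.57, SE 0.08, adjusted p = 1.37e-08), and a mean of 87.5 and 88.4 CPM in ACHN (0.01). The difference of −0.59 (SE 0.09) was the most significant among the named RNAs (adjusted p = 5.9e-07). PCNA-AS1 went from 26.8, 29.3 and 24.9 CPM to 19.7, 19.7 and 20.4 CPM in H226 (−0.44, SE 0.08, adjusted p = 1.47e-05), with −0.02 in ACHN and a called difference of −0.43 (adjusted p = 0.00063). Their namesakes, the lamina protein gene TMPO (−0.44) and the replication clamp gene PCNA (−0.51), fell in H226 too.

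RASAL2-AS1 was the 1 antisense RNA called lower in both lines. It fell from 5.92, 6.34 and 5.35 CPM to 4.01, 2.72 and 3.48 CPM in H226 (−0.80, SE 0.18, adjusted p = 0.000213). In ACHN it went from 6.79, 5.32 and 6.61 CPM to 4.42, 3.83 and 5.34 CPM (−0.46, SE 0.17, adjusted p = 0.0486), where the groups overlapped. RASAL2, a Ras GTPase-activating protein gene, fell in both (−0.64 and −0.69). The ACHN call of RASAL2-AS1 was lost without DMSO replicate 1 or 3 or SWTX-143 replicate 1 or 2 (adjusted p up to 0.19), with both other scalings, without the low-count filter, with the replicate block, and in DESeq2 (0.224). Scarce RNAs made up the remaining H226 falls named by rule: CCNT2-AS1 (−0.85), FRMD6-AS1 (−0.84), SLCO4A1-AS1 (−0.84) and C8orf37-AS1 (−1.03), all from 1.47 to 2.04 CPM under DMSO. C8orf37-AS1 passed the 1 CPM minimum through its H226 controls alone, so its fall is not independent of its selection. CCNT2-AS1 was not called without any 1 library except DMSO replicate 1, SLCO4A1-AS1 with either other scaling or without DMSO replicate 2 or 3 or SWTX-143 replicate 1 or 3, FRMD6-AS1 without DMSO replicate 1 or 2 or SWTX-143 replicate 2, and C8orf37-AS1 without DMSO replicate 2 (adjusted p up to 0.13, 0.173, 0.13 and 0.115), and none of the 4 was called in DESeq2.

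Antisense rises in H226 were larger in fold but started from little RNA. SEPT4-AS1 rose 3.61-fold, from 0.359, 0.543 and 0.525 CPM to 1.58, 1.75 and 1.87 CPM (1.85, SE 0.38, adjusted p = 5.68e-05), and FAM83A-AS1 rose 3.29-fold, from 0.807, 0.453 and 0.630 CPM to 1.96, 2.28 and 2.05 CPM (1.72, SE 0.34, adjusted p = 3.39e-05). ST3GAL5-AS1 rose from a mean of 0.646 to 1.80 CPM (1.43, SE 0.35, adjusted p = 0.000797). SEPT4-AS1, FAM83A-AS1 and ST3GAL5-AS1 averaged under 1 CPM in the H226 controls and in ACHN, so they passed the minimum through the treated libraries. A large rise from little RNA is thus partly built into their selection. All treated libraries were above all controls, and the namesakes rose in each case: the septin gene SEPT4 (1.08), FAM83A (1.14) and ST3GAL5 (0.86), the enzyme that makes the ganglioside GM3.

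Among these 6 largest rises UNC5B-AS1 was the most abundant. It went from 2.87, 2.63 and 2.10 CPM to 5.12, 5.96 and 5.53 CPM (1.12, SE 0.19, adjusted p = 2.62e-06) beside the netrin receptor gene UNC5B (0.67). PDCD4-AS1 rose with PDCD4, an inhibitor of translation initiation (1.01 and 1.02), but was not called without DMSO replicate 2 or SWTX-143 replicate 2 (adjusted p up to 0.104) or in DESeq2 (0.0847). SRP14-AS1 rose (1.06, adjusted p = 0.0041) where SRP14 was not called (0.07), and was not called without DMSO replicate 2 (0.0555). Only 4 called pairs in H226 moved in opposite ways, and they were picked out after their values were seen. PSMG3-AS1 rose from 14.6, 14.3 and 13.5 CPM to 19.5, 20.58 and 19.97 CPM (0.50, SE 0.09, adjusted p = 1.85e-05) while the proteasome chaperone gene PSMG3 fell (−0.42, adjusted p = 6.61e-07). The others, OTUD6B-AS1 (0.20 against −0.44), NOP14-AS1 (0.21 against −0.35) and ARHGEF26-AS1 (0.30 against −0.18), were not called in DESeq2 (0.0716, 0.136 and 0.178). OTUD6B-AS1 also lost its call without DMSO replicate 1, NOP14-AS1 without DMSO replicate 1 or 2 or SWTX-143 replicate 1, and ARHGEF26-AS1 without the low-count filter, DMSO replicate 1 or 2 or SWTX-143 replicate 1 or 3.

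In ACHN 10 antisense RNAs fell (6 or 7 under the other scalings). EZR-AS1 fell from 32.5, 32.2 and 31.7 CPM to 24.3, 23.3 and 19.6 CPM (−0.52, SE 0.08, adjusted p = 1.38e-06), beside ezrin (EZR, −0.61), which links membrane and actin. In H226 it had −0.10 (adjusted p = 0.152), and the difference of 0.42 (SE 0.10) was called (adjusted p = 0.000746). NEXN-AS1 fell from 11.5, 9.76 and 8.82 CPM to 6.81, 6.97 and 5.71 CPM (−0.63, SE 0.14, adjusted p = 0.000617) with the actin-binding nexilin gene NEXN (−0.33).

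EGFR-AS1 fell from 27.0, 27.0 and 30.6 CPM to 23.6, 22.1 and 17.9 CPM (−0.41, SE 0.09, adjusted p = 0.000353), beside the growth factor receptor gene EGFR (−0.53). PRICKLE2-AS1 fell from 15.9, 17.1 and 15.7 CPM to 12.6, 11.8 and 11.3 CPM (−0.45, SE 0.10, adjusted p = 0.00112) with the planar polarity gene PRICKLE2 (−0.23). Neither had a treated library as high as a control. VLDLR-AS1 (−0.36, adjusted p = 0.0347) fell with the lipoprotein receptor gene VLDLR (−0.42), but was not called without DMSO replicate 2 or 3 or SWTX-143 replicate 1 or 3 (up to 0.277), with either other scaling, or in DESeq2 (0.182).

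The ACHN antisense rises numbered 13 (19 or 22 under the other scalings). RUNDC3A-AS1 rose from 3.2, 2.168 and 3.031 CPM to 3.889, 5.2 and 5.891 CPM (0.82, SE 0.20, adjusted p = 0.00211) with RUNDC3A (1.101), and was called without each library in turn. ADAMTS9-AS1 rose (0.74, adjusted p = 0.0127) with the metalloprotease gene ADAMTS9 (0.26), but not without replicate 1 of either group (up to 0.0974). PRKCQ-AS1 (0.71), KLF3-AS1 (0.69), SGMS1-AS1 (0.57) and RHPN1-AS1 (0.97) were called beside namesakes that were not. RHPN1-AS1 passed the 1 CPM minimum through the treated ACHN libraries alone, so its rise is not independent of its selection. PRKCQ-AS1 lost its call without DMSO replicate 1 or 2 or SWTX-143 replicate 3, KLF3-AS1 without DMSO replicate 1 or 3 or SWTX-143 replicate 2 or 3, SGMS1-AS1 without DMSO replicate 1 or 3 or SWTX-143 replicate 1 or 2, and RHPN1-AS1 without any 1 library except SWTX-143 replicate 3. SGMS1-AS1 and RHPN1-AS1 also lost it with the replicate block and without the low-count filter. The highest adjusted p of the 4 without a library were 0.328, 0.14, 0.153 and 0.234, and DESeq2 called none of them or of ADAMTS9-AS1 (it gave RHPN1-AS1 no adjusted p).

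VIM-AS1 and MIF-AS1, among the highest per kilobase, had small values. VIM-AS1 rose from 243, 273 and 266 CPM to 285, 298 and 291 CPM in H226 (0.16, SE 0.04, adjusted p = 0.00202), with VIM at 0.17, and lost its call without DMSO replicate 1 (adjusted p = 0.0502). MIF-AS1 had means of 204 CPM in both H226 groups (0.00) and 325 and 343 CPM in ACHN (0.08, adjusted p = 0.17).

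Promoter letters were set against the response for the 406 RNAs with a RefSeq promoter of 300 bases, 250 before the start and 50 after. Both strands were searched for GGAATG, the core of the TEAD site, the E-box CACGTG and the AP-1 letters TGANTCA, and none of the 3 contains another. GGAATG was in 15.3% of the 406 promoters and 14.0% of 27305 in RefSeq, CACGTG in 9.85% and 7.43%, and TGANTCA in 5.91% and 7.76%. Among RNAs called lower in H226, 7 of 36 promoters held GGAATG (19.4%), and among those called higher 6 of 49 (12.2%). In ACHN it was 2 of 16 called lower (12.5%) and 0 of 6 called higher. The 6 called promoters with the largest change the same way in both lines, those of RASAL2-AS1, SNHG17, SNHG1, B4GALT1-AS1, LINC00674 and GAS5, held none of the 3. Below are DIAPH3-AS1, the largest H226 fall with GGAATG, and SNHG3, the 1 host of the 7, which holds it in 2 places (GRCh38.p14, capitals mark GGAATG or, on the other strand, CATTCC).
DIAPH3-AS1 (chr13:60012468-60012767, plus strand): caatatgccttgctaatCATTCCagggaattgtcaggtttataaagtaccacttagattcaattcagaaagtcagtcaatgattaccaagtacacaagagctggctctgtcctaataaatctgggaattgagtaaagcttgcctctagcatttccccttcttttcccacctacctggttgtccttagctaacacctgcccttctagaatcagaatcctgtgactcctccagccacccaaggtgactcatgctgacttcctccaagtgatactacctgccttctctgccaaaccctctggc
SNHG3 (chr1:28505693-28505992, plus strand): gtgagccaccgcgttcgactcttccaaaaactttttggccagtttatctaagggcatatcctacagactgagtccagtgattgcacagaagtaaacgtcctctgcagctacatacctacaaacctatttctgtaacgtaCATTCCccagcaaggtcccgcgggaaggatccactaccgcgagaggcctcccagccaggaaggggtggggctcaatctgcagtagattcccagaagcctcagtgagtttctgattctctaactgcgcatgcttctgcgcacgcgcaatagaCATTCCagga
A match is a description of the letters, not evidence of binding, and the absence of a match says only that the letters are not in this window. GLIS3-AS1, another of the 7, had fallen from 6.10, 7.24 and 6.61 CPM to 3.91, 4.20 and 3.92 CPM in H226 (−0.73, SE 0.16, adjusted p = 0.000216), beside the transcription factor gene GLIS3 (−0.52).

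Between the lines, 395 of the RNAs were tested in both, and 91 were called in H226 and 30 in ACHN. Of these 11 were called in both, 12.1% of the H226 calls and 36.7% of the ACHN calls. Over all 12333 symbols tested in both lines, 11.3% were called in both, which was 27.6% of H226 calls and 63.4% of ACHN calls. Lower in both were SNHG1, SNHG15, SNHG16, SNHG17, GAS5, LINC01279, LINC01111 and RASAL2-AS1. Higher in both were LINC00674 and B4GALT1-AS1 (0.32 and 0.45), the latter beside the galactosyltransferase gene B4GALT1 (0.32 and 0.29). B4GALT1-AS1 was not called in DESeq2 in either line (0.0662 and 0.172), nor in ACHN without DMSO replicate 1 or 3 or SWTX-143 replicate 1 (up to 0.238).

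FLG-AS1 was called in opposite directions. It had 2.51, 1.72 and 3.36 CPM in the H226 controls and 4.29, 2.72 and 4.37 CPM with SWTX-143 (0.60, SE 0.23, adjusted p = 0.0321), where the groups overlapped. In ACHN it fell from 12.8, 12.9 and 14.5 CPM to 9.989, 10.01 and 11.87 CPM (−0.34, SE 0.11, adjusted p = 0.0307) with filaggrin, FLG (−0.48). The difference, 0.93 (SE 0.25, adjusted p = 0.00463), was called without each library in turn, while the single-line calls were not: H226 without replicate 1 of either group, DMSO replicate 2 or SWTX-143 replicate 3 (up to 0.223), ACHN with library size alone or without DMSO replicate 3 or SWTX-143 replicate 1 or 2 (up to 0.178), and DESeq2 called neither (0.148 and 0.164).

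The difference of responses itself, H226 minus ACHN, was called for 32 of 536 RNAs tested, 14 positive and 18 negative (5.97%). Over 14664 genes it was called for 15.6%, 5.89% positive and 9.70% negative, and with upper-quartile scaling the 32 split into 18 and 14. Among snoRNA hosts 4 of 19 differed: SNHG15 and SNHG1 with the larger fall in H226, and SNHG22 and SNHG7 with the more positive response there. PLCE1-AS1 had the largest negative difference among the named RNAs (−2.75, SE 0.71, adjusted p = 0.00291). It had 0.987, 1.27 and 0.630 CPM in the H226 controls and 0.0932, 0.175 and 0.0892 CPM with SWTX-143, too few reads for the test within H226, and in ACHN 2.13, 1.08 and 2.30 CPM against 1.59, 2.16 and 1.20 CPM.

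Among 26 listed long noncoding RNAs outside the name rule, 2 rose and 5 fell of 21 tested in H226, and 2 fell of 18 tested in ACHN. With 21.6% of all genes lower in H226 and 9.37% in ACHN, these counts of falls are near the background. MIR17HG, the host of the growth-promoting miR-17 to miR-92a cluster, fell in both lines (−1.30, adjusted p = 0.000248 in H226, and −0.64, adjusted p = 0.0209 in ACHN). MIR22HG fell by 0.24 on the log2 scale in H226 and by 0.97 in ACHN (adjusted p = 1.86e-08). DANCR, itself a snoRNA host (−0.48, SE 0.11, adjusted p = 0.000154), DLEU2, which hosts miR-15a and miR-16-1 (−0.55), and MIR4435-2HG (−0.44) fell in H226, and HOTAIRM1 (0.35) and TP53TG1 (0.60) rose there.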

How the data were processed

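The deposited files were 2 tables of whole-number read counts per gene symbol, 1 per line, as the authors made them, and no other column was used (per the file headers and values). Trimming with cutadapt, quality control with FastQC and alignment with STAR 2.6.1d to hg19 (GRCh37) are listed in the submitters' processing notes. For the counter, its strand setting and the annotation, the sources used here give nothing. The mean CPM that chose the RNAs is the raw count over the library total, and every other CPM uses TMM library sizes.

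Each line was fitted over all its genes with edgeR 4.0.16 in R 4.3.3: filterByExpr with a minimum count of 10, TMM, robust quasi-likelihood F tests of SWTX-143 against DMSO, Benjamini-Hochberg over all tested genes, limit 0.05. The SE is the log2 fold change over the square root of F. The line difference was 1 contrast over all 12 libraries. The common coefficient of variation between replicates was 3.98% in H226 and 3.23% in ACHN. The fits were tested on simulated counts. Alternatives were DESeq2 1.42.0, other scalings, no filter, a replicate block, each library left out, a 5 CPM minimum, and removal of overlapping or now protein-coding symbols.

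Symbols were matched to RefSeq for 536 of 537 RNAs (89 by synonym) and to GENCODE 29 for 523. These are on GRCh38 and served for names, overlaps, lengths and promoters only. The sequences are from RefSeq.

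The RNAs and gene lists were chosen with earlier results of these data known. Named were all SNHG RNAs, GAS5, MALAT1 and NEAT1. Per line, the LINC and antisense classes each gave the 6 largest called rises and falls with at least 1 CPM and the 5 highest levels per kb. The 6 largest called differences in each direction, the 14 now protein-coding symbols, the partners of named RNAs and up to 4 genes of each list with the smallest p were added.

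A few results are not reported here.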

Additional observations from a re-analysis of the deposited data

Results flagged for a closer look

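The response differed between H226 and ACHN, by the test of the difference itself, for 20 of the named RNAs. Some were named because their called difference was among the 6 largest in a direction, so the 20 do not measure a share. Over all RNAs tested the difference was called for 32 of 536 (5.97%), against 15.6% of all genes tested. Values are the log2 response of H226 minus that of ACHN. A more negative response in H226 was found for SNHG1 (−0.304), SNHG15 (−0.56), LINC00839 (−0.508), LINC01111 (−0.818), TMPO-AS1 (−0.594), PCNA-AS1 (−0.428), CCNT2-AS1 (−1.201), SLCO4A1-AS1 (−1.171), FAM212B-AS1 (−2.062) and PLCE1-AS1 (−2.748). A more positive response in H226 was found for LINC00173 (2.422), LINC00346 (0.638), LINC01279 (0.373), EZR-AS1 (0.417), FLG-AS1 (0.928), PAX8-AS1 (0.873), SNHG22 (0.932), SNHG7 (0.411), TAPT1-AS1 (1.233) and ADORA2A-AS1 (1.649). Of all 32 called differences, 14 were called without each of the 12 libraries in turn, and these include TMPO-AS1, LINC01111, LINC00173, LINC00346, LINC00839, EZR-AS1, FLG-AS1, PCNA-AS1, PLCE1-AS1 and SNHG15. ADORA2A-AS1 lost the call without 8 of 12 libraries and CCNT2-AS1 without 9 of 12. TAPT1-AS1 lost it without 4, SLCO4A1-AS1 and PAX8-AS1 without 3 each and FAM212B-AS1 without 2. DESeq2 gave no adjusted p for the differences of PLCE1-AS1, LINC00173, FAM212B-AS1, ADORA2A-AS1, TAPT1-AS1, CCNT2-AS1 and SLCO4A1-AS1.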

How the results depend on the processing

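No called value of a named RNA changed direction under the settings tried, but the balance of rises and falls in ACHN and in the difference turned under other scalings, from 15 and 19 to 21 and 16 or 24 and 15 in ACHN and from 14 and 18 to 18 and 14 in the difference with upper-quartile scaling. In H226 the count of 112 called RNAs became 61 in DESeq2 and 15 with only RNAs that overlap no other gene, and ran from 85 to 103 with 1 library left out. In ACHN the 34 became 15 in DESeq2 and 5 without overlaps, and ran from 24 to 33. For the difference between lines the 32 became 16 in DESeq2 and 4 without overlaps, and ran from 22 to 33. The counts without overlaps are lower because fewer RNAs enter (51, 55 and 67), and for DESeq2 the cause was not tested. DESeq2 gave an adjusted p to 386 of 474 RNAs in ACHN and to 233 of 536 in the difference, and those without one are not counted as lost. The other settings gave 105 to 117 calls in H226, 77 with the 5 CPM minimum, and 28 to 39 in ACHN. Replicate numbers recur in all groups. Libraries with the same number had correlations of −0.0969 to 0.0578, within the −0.127 to 0.107 of libraries with different numbers. With 3 libraries per group these values cannot tell whether libraries of the same number share a culture or handling. With the replicate block the calls were 117 in H226, 31 in ACHN and 36 in the difference. Of 71 called values of named RNAs, 37 kept the call under every setting, 34 lost it without at least 1 library and 28 lost it in DESeq2. Depth limits RNAs near 1 CPM, about 10 reads per library.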
